A study of Mus musculus with 8 samples.

Results

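The genes described here control the G1 phase of the cell cycle and entry into S phase: the G1 cyclins *Ccnd1*, *Ccnd2*, *Ccnd3*, *Ccne1* and *Ccne2*, the CDK inhibitors *Cdkn1a*, *Cdkn1b* and *Cdkn2c*, the retinoblastoma gene *Rb1*, and *Skp2*, which targets a CDK inhibitor for degradation. They were chosen by name, and 9 of the 10 had a row among the 21950 genes of the count table. *Ccnd2* was not analysed here. Expression was compared between day 6 primordial germ cell-like cells (d6PGCLCs) and primordial germ cells (PGCs) from the embryo, with 4 RNA-Seq libraries per group, each made from a pool of sorted cells of an independent experiment. The d6PGCLCs were differentiated in culture from a female mouse iPSC line (BVSC-iPSC) that carries the reporters Blimp1-Venus and Stella-ECFP. They were taken at day 8 of culture, and were sorted as positive for both reporters. The PGCs came from female gonads of C57BL/6J embryos at E12.5, and were sorted as positive for SSEA1 and integrin β3. All d6PGCLC pools derived from 1 iPSC line, and the groups were sorted by different gates. Line, culture, stage and sort can therefore not be told apart, and the pools do not show how single cells varied.

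D-type cyclins bind CDK4 and CDK6, and E-type cyclins bind CDK2. Together these kinases phosphorylate the retinoblastoma protein, which then releases the E2F transcription factors that drive the genes of DNA replication. CDK inhibitors hold the kinases back, and SKP2, the substrate-binding part of an SCF ubiquitin ligase, marks the inhibitor p27 (the product of *Cdkn1b*) for destruction. Germ cells of the female gonad proliferate until they enter meiosis around the stage sampled here.

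Both groups expressed all 9 germ cell markers examined, with a summed level from 3854 to 4446 CPM (counts scaled by TMM to a common library total) in d6PGCLCs and from 2906 to 3251 CPM in E12.5 PGCs. Of the genes behind the sorts, *Prdm1* (Blimp1) reached 444 ± 43.6 CPM (SD, n = 4) and *Dppa3* (Stella) 691 ± 118 CPM in d6PGCLCs, against 192 ± 18.1 and 384 ± 42.5 CPM in E12.5 PGCs. *Itgb3* (integrin β3) reached 324 ± 23.6 CPM in E12.5 PGCs, against 197 ± 10.1 CPM in d6PGCLCs. The marker *Fut4* was at only 0.875 ± 0.318 CPM in d6PGCLCs and at 9.87 ± 3.71 CPM in E12.5 PGCs. Summed markers of gonadal somatic cells (9 of 10 genes had a row) lay between 0.415 and 5.33 CPM in d6PGCLCs and between 1.99 and 6.31 CPM in E12.5 PGCs. Of the 9, 3 were called lower in d6PGCLCs and 0 higher, against 15.4% and 16.1% of all genes. The d6PGCLC and E12.5 PGC means of these 3 were 0.115 and 1.12 CPM for *Wt1*, 0.115 and 0.922 CPM for *Gata4* and 0.021 and 0.404 CPM for *Pdgfra*. Counted reads ranged from 8054596 to 12024841 in d6PGCLCs and from 7991437 to 11166023 in E12.5 PGCs, so that 3 counts, taken as the limit of detection, correspond to 0.249 to 0.383 CPM (counting error only). Among the E12.5 PGC libraries, pool 4 held 97 counts from 5 Y-linked genes, against 0 in each of the other 7 libraries, and pool 2 had the highest summed level of dissociation-response genes (1116 CPM, against 406 to 557 CPM in the others). The groups differed in these genes as well: 7 of 10 were called lower in d6PGCLCs and 1 higher (*Junb*, 1.83). These stand beside 25.7% lower and 28.3% higher among genes that averaged 20 counts or more. In this list, *Hspa1a* was at 20.3, 144, 16.0 and 4.42 CPM in the E12.5 PGC pools and at 0.305 to 0.747 CPM in d6PGCLCs. The part of this response and of gonadal somatic cells in the differences given below was not tested. Values without E12.5 PGC pools 2 and 4 are given where the call of a gene examined singly in that setting changed. Marker genes, *Cdkn2b* and some other list genes were not examined singly there.

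As a set, the G1 regulators did not move one way. In d6PGCLCs, *Cdkn1b*, *Skp2*, *Ccnd3*, *Cdkn1a* and *Ccne1* were higher than in E12.5 PGCs, *Ccnd1* and *Rb1* were lower, and *Ccne2* and *Cdkn2c* did not pass the test. Thus 7 of 9 members were called at an adjusted p of at most 0.05 (edgeR quasi-likelihood test, Benjamini-Hochberg over all genes), against 31.5% of all genes tested. The 5 higher members stand beside 16.1% of genes called higher, and the 2 lower members beside 15.4% called lower. Of the genes that averaged 20 counts or more per library, which leaves out *Cdkn2c*, 54.0% were called, 28.3% higher and 25.7% lower. A call with an at least 2-fold difference (absolute log2 fold change of at least 1) was found for 4 members, against 14.7% of all genes. Of these members, *Cdkn1b*, *Skp2* and *Ccnd3* were higher and *Ccnd1* lower. In 7 of 9 members the 4 values of one group lay entirely above those of the other, against 30.2% of all genes. One of the 7 is *Cdkn2c*, which was near the limit of detection. The shares of 14.7% and 30.2% are over all 21950 genes, of which 4940 had no count. They were not formed among genes of similar count, so they do not show how unusual the members are. The median log2 fold change of the members was 0.30, beside 0 over all genes tested. The members were chosen with earlier results of these data known, and no test was made of the set.

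**Figure D1:**
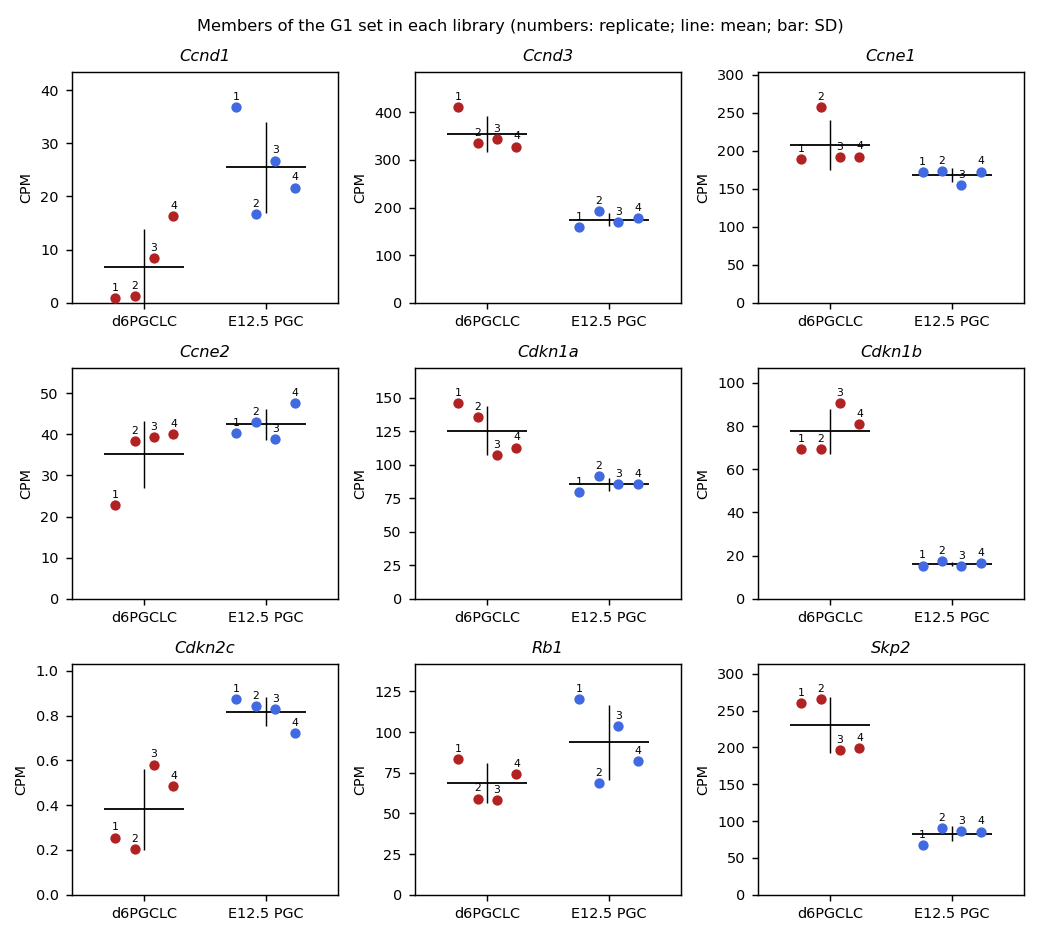
Level of each measured member in each library, in CPM (y axis, from 0) for d6PGCLCs (red) and E12.5 PGCs (blue), with the replicate number at each point, the mean as a horizontal line and the SD as a vertical bar (for *Ccnd1* in d6PGCLCs the bar is clipped at 0). *Cdkn1b* shows 4 d6PGCLC values between 69.3 and 90.6 CPM above 4 E12.5 PGC values between 15.2 and 17.4 CPM, and *Ccnd1* shows values spread from 0.893 to 16.2 CPM within d6PGCLCs.

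The windows around the start sites of the 3 members with an at least 2-fold higher level in d6PGCLCs are shown as the sequence context of the largest differences in that direction. Each holds 250 bases before and 50 bases after a RefSeq start site (GRCm38.p6), written 5′ to 3′ on the strand of the gene. Capitals mark the GC box GGGCGG and the CCAAT box on either strand. The windows are *Cdkn1b* at chr6:134920151-134920450 (plus strand), both start sites of *Skp2* at chr15:9155376-9155675 (outer) and chr15:9140405-9140704 (inner, both minus strand), and the outer of 2 start sites of *Ccnd3* at chr17:47504801-47505100 (plus strand), the outer sites being those at the gene start given below.
Cdkn1b: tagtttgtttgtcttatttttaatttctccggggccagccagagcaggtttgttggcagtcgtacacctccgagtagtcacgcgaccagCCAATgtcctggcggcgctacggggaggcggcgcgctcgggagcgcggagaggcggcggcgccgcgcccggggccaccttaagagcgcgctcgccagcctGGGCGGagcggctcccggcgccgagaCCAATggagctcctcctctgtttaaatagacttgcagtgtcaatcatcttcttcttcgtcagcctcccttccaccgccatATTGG
Skp2 outer: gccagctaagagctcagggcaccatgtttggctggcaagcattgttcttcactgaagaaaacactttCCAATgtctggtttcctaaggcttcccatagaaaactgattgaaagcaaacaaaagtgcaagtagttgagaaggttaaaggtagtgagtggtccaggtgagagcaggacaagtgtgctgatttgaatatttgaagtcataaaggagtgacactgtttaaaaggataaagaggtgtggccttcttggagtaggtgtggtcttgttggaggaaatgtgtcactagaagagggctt
Skp2 inner: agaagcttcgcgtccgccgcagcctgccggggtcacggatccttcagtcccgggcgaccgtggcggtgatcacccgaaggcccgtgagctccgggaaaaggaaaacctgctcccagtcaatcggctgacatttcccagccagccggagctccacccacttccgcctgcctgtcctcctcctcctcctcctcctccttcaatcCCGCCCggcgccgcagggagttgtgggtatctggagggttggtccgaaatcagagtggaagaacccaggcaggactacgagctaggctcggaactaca
Ccnd3: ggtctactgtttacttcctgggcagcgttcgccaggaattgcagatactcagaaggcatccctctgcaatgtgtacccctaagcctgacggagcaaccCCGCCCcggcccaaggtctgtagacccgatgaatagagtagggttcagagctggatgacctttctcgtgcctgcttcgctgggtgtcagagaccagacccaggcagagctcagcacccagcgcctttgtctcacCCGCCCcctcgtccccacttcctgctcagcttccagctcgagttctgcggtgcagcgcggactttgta
The *Cdkn1b* window held 1 GC box and 3 CCAAT boxes, 1 of which lies after the start site. The 2 *Skp2* windows differed, with 1 CCAAT box 183 bases before the outer start site and no GC box there, and with 1 GC box 48 bases before the inner start site and no CCAAT box. The outer *Ccnd3* window held 2 GC boxes, 18 and 152 bases before the start site, and no CCAAT box, and the inner one (chr17:47593217-47593516, not printed) held 2 GC boxes and 1 CCAAT box. Of 32851 RefSeq windows of this length, 35.7% held a GC box and 37.4% a CCAAT box, so that both are common. The E2F-type motif TTTNNCGC, found in 5.17% of windows, was not found in the 10 windows of the 6 members with an entry (*Ccnd3*, *Ccne1*, *Cdkn1a*, *Cdkn1b*, *Cdkn2c* and *Skp2*). No window was used for *Ccnd1*, *Ccnd2*, *Ccne2* and *Rb1*. A match is a description of the letters, and no binding was measured.

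The D-type cyclins, which couple growth signals to the cell cycle, differed in opposite directions. *Ccnd3* (chr17:47505051-47599689, GRCm38) was at 411, 336, 344 and 328 CPM in d6PGCLC pools 1 to 4 and at 159, 192, 169 and 178 CPM in E12.5 PGC pools 1 to 4. Every d6PGCLC value lay above every E12.5 PGC value, and the mean was 2.03-fold higher in d6PGCLCs (log2 fold change 1.02 ± 0.09 (SE), edgeR adjusted p = 2.15e-08). Leaving out any 1 library gave between 0.94 and 1.07. *Ccnd3* shares 361 exonic bases (4.11%) with *Bysl*, on the opposite strand, which had a mean of 3456 counts against 2534 for *Ccnd3*.

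*Ccnd1* (chr7:144929931-144939831) was by contrast low and uneven in d6PGCLCs. Its 4 pools gave 0.893, 1.32, 8.38 and 16.2 CPM, from 7, 13, 101 and 134 counts. The E12.5 PGC pools gave 36.8, 16.7, 26.7 and 21.7 CPM. The groups did not overlap, but the highest d6PGCLC pool lay just below the lowest E12.5 PGC pool, and the highest d6PGCLC value was 18.2-fold above the lowest. The mean was 3.80-fold higher in E12.5 PGCs, 25.5 ± 8.58 CPM against 6.71 ± 7.22 CPM (log2 fold change of -1.92 ± 0.46 in d6PGCLCs, edgeR adjusted p = 0.00236). The call was lost with DESeq2 (-1.94, adjusted p = 0.0574), and the value ranged from -2.74 (without d6PGCLC pool 4) to -1.57 (without d6PGCLC pool 2) when 1 library was left out. Its coefficient of variation in d6PGCLCs, 108%, was at the 99.8th percentile of 2193 genes of similar level, and in E12.5 PGCs, at 33.7%, at the 99.0th percentile of 3126 genes. The other members varied less in d6PGCLCs, *Ccnd3*, *Ccne1*, *Cdkn1a*, *Cdkn1b*, *Rb1* and *Skp2* by 10.7% to 17.7%, *Ccne2* by 23.4% and the sparsely counted *Cdkn2c* by 47.4%.

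In such bulk samples, fewer cells that express a gene and less RNA per cell cannot be told apart. In d6PGCLC pools 1 to 4 the summed markers of gonadal somatic cells, with which these cells had not yet been cultured, were at 1.79, 2.34, 0.415 and 5.33 CPM, and the collagen gene *Col1a2* made up 4.73 CPM of the last. Of the 9 markers, 3 to 6 were at 0 in each d6PGCLC pool and 1 to 3 in each E12.5 PGC pool, and *Tcf21* was at 0 in every d6PGCLC pool. The 5 endothelial markers summed to 20.0, 28.0, 27.5 and 34.7 CPM in d6PGCLCs and to 14.6 to 24.9 CPM in E12.5 PGCs, with *Kdr* and *Emcn* at or near 0. One of them, *Cdh5*, was at 6.64, 9.57, 11.2 and 16.5 CPM in d6PGCLC pools 1 to 4, in the same order as *Ccnd1*. *Tek* was at 13.3, 17.8, 16.2 and 17.8 CPM and *Erg* at 0.13, 0.51, 0 and 0.12 CPM in these pools, neither in that order. The 6 markers of epiblast-like or somatic cells of the culture summed to 9.06, 8.04, 7.47 and 6.67 CPM, in the reverse order, and to 20.6 to 24.8 CPM in E12.5 PGCs. No single gene of this list followed that order, *Otx2* being at 3.32, 3.77, 2.90 and 3.03 CPM and *Fgf5* at 1.28, 0.305, 2.32 and 1.33 CPM. With the higher sum in PGCs from the embryo, the list does not mark cells of the culture alone. The 4 blood cell markers lay between 1.08 and 3.06 CPM in d6PGCLCs and between 0 and 0.421 CPM in E12.5 PGCs. The part of such cells in the level of *Ccnd1* was not tested.

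The E-type cyclins, which act later in G1, differed less. *Ccne1* (chr7:38097984-38107490) was at 189, 258, 192 and 192 CPM in d6PGCLCs and at 172, 173, 155 and 173 CPM in E12.5 PGCs. The groups did not overlap, and d6PGCLC pool 2 stood above the other 3. The log2 fold change was 0.30 ± 0.10 (edgeR adjusted p = 0.0267), but the call was lost without that pool (0.18, adjusted p = 0.151), without E12.5 PGC pool 3 (0.27, adjusted p = 0.107) and without E12.5 PGC pools 2 and 4 (0.34, adjusted p = 0.0539). It was also lost with upper-quartile scaling (0.26, adjusted p = 0.0516) and with an offset for exonic length (0.19, adjusted p = 0.122).

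Its paralog *Ccne2* (chr4:11190433-11204779) was at 22.8, 38.3, 39.2 and 40.0 CPM in d6PGCLCs and at 40.3, 42.9, 38.8 and 47.6 CPM in E12.5 PGCs. The groups overlapped, and the first d6PGCLC pool was well below the other 3. The log2 fold change of -0.27 ± 0.15 did not pass the test (edgeR adjusted p = 0.211). Leaving out any 1 library gave between -0.34 and -0.12 (edgeR adjusted p of at most 0.586). *Ints8*, on the opposite strand, shares 609 bases (17.4%) of the exons of all *Ccne2* isoforms and had a mean of 1800 counts, so that without strand in the counting, which the sources used here do not state, part of the *Ccne2* reads could come from it. *Ccnd1* shares 1100 exonic bases (23.4%) with *LTO1*, which had a mean of 59.6 counts.

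Among the CDK inhibitors, *Cdkn1b*, which encodes p27, was several-fold higher in d6PGCLCs. At chr6:134920401-134925525, it was at 69.3, 69.3, 90.6 and 80.7 CPM in d6PGCLCs and at 15.3, 17.4, 15.2 and 16.7 CPM in E12.5 PGCs. The lowest d6PGCLC value was far above the highest E12.5 PGC value. The mean was 4.80-fold higher in d6PGCLCs, 77.5 ± 10.3 against 16.2 ± 1.05 CPM (log2 fold change 2.26 ± 0.12, edgeR adjusted p = 1.13e-11). Leaving out any 1 library moved it only between 2.17 and 2.31, and no gene annotated in GENCODE M21 overlaps *Cdkn1b*.

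*Cdkn1a* (chr17:29090979-29100722), which encodes p21 and is a target of p53, was higher in d6PGCLCs to a lesser extent. Pools 1 to 4 gave 146, 136, 107 and 113 CPM in d6PGCLCs and 79.8, 91.8, 85.7 and 85.3 CPM in E12.5 PGCs. The groups did not overlap, the first and second d6PGCLC pools were the highest, and the log2 fold change was 0.55 ± 0.11 (edgeR adjusted p = 0.00031). When the difference was tested against an absolute log2 fold change of 0.5 (glmTreat of edgeR), it was no longer called. *Cdkn1a* shares 273 exonic bases (7.68%) with *AC167363.2*, on the opposite strand, which had no row in the table.

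*Cdkn2c*, which encodes p18, an inhibitor of CDK4 and CDK6, was near the limit of detection (chr4:109660876-109666756). It had 2, 2, 7 and 4 counts in d6PGCLCs and 7, 8, 9 and 8 counts in E12.5 PGCs. Scaled, these were 0.255, 0.204, 0.581 and 0.485 CPM against 0.873, 0.842, 0.830 and 0.722 CPM, which did not overlap. The ratio of the summed counts, 15 against 32, was 0.487 after scaling (95% exact interval 0.245 to 0.926, counting error only). The log2 fold change of -1.03 ± 0.53 did not pass the test (edgeR adjusted p = 0.142).

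*Rb1* (chr14:73192858-73325951), the pocket protein gene that the cyclin-dependent kinases act on, was at 83.3, 59.0, 58.2 and 74.1 CPM in d6PGCLCs and at 120, 68.6, 104 and 82.1 CPM in E12.5 PGCs. The groups overlapped. The log2 fold change of -0.45 ± 0.15 passed the test (edgeR adjusted p = 0.0236), and the call was lost without d6PGCLC pool 2 (-0.39, adjusted p = 0.0742) or 3 (-0.38, adjusted p = 0.0762), and without E12.5 PGC pool 1 (-0.31, adjusted p = 0.120) or 3 (-0.40, adjusted p = 0.0785). E12.5 PGC pools 1 and 3, where *Rb1* and *Ccnd1* were highest, also had the highest summed level of 7 meiotic entry genes, 212 and 197 CPM, against 133 and 137 CPM in pools 2 and 4. The largest part was *Rec8*, at 76.9, 37.3, 61.9 and 43.5 CPM in E12.5 PGC pools 1 to 4. *Stra8*, *Sycp1*, *Meioc* and *Dmc1* were also highest in pools 1 and 3, but *Sycp3* (32.3, 33.5, 37.6 and 35.5 CPM) and *Spo11* (11.7, 12.2, 11.7 and 10.7 CPM) were not. In d6PGCLCs the 7 genes summed to 120 to 134 CPM, most of it from *Rec8*. Between the groups, 6 of the 7 were called lower in d6PGCLCs, from *Stra8* (-5.02) to *Dmc1* (-0.82), and the meiotic cohesin gene *Rec8* was called higher (0.75). Lower calls made up 25.7% of genes that averaged 20 counts or more, and higher calls 28.3%. The part of meiotic entry in the levels of *Rb1* and *Ccnd1* was not tested. *Rb1* shares 488 exonic bases (8.11%) with *Rcbtb2* and 408 (6.78%) with *Lpar6*, both on the opposite strand.

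*Skp2* (chr15:9111982-9155425), the F-box gene of the ligase that removes p27, was higher in d6PGCLCs together with *Cdkn1b*, the gene of its substrate. It was at 261, 266, 196 and 199 CPM in d6PGCLCs and at 67.7, 90.6, 86.2 and 85.8 CPM in E12.5 PGCs. The groups were far apart, and the first and second d6PGCLC pools, which were highest for *Skp2*, were the lowest for *Cdkn1b*. The log2 fold change was 1.48 ± 0.12 (edgeR adjusted p = 2.27e-09), with a range of 1.40 to 1.54 when 1 library was left out. Over 8127 genes that averaged 100 counts or more, the patterns over the 8 libraries most like that of *Skp2* were those of *Pttg1ip*, *Vdac1* and *Gsta4* (Pearson r of log2(CPM + 0.1) of 0.998, 0.997 and 0.995, given as a measure of likeness, which mostly follows the difference between the 2 groups). The log2 fold changes of *Pttg1ip*, the mitochondrial channel gene *Vdac1* and the glutathione transferase gene *Gsta4* were 0.68, 0.98 and 1.77.

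To compare levels between genes, CPM were divided by the exonic length of the counted isoform in kilobases (RPKM). In d6PGCLCs *Ccnd3* (90.8 ± 9.75 RPKM) and *Ccne1* (85.3 ± 13.7 RPKM) were the highest and overlapped. *Skp2* (65.1 ± 10.7 RPKM) and *Cdkn1a* (60.0 ± 8.81 RPKM) followed, also overlapping. *Cdkn1b* came next with 30.7 ± 4.07 RPKM, apart from its neighbours on both sides. Below it *Rb1* (12.04 ± 2.14 RPKM) overlapped *Ccne2* (10.02 ± 2.34 RPKM), and *Ccnd1* (1.68 ± 1.81 RPKM) overlapped *Cdkn2c* (0.321 ± 0.152 RPKM).

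In E12.5 PGCs *Ccne1* alone was highest, at 69.1 ± 3.61 RPKM. *Ccnd3* (44.7 ± 3.56 RPKM) overlapped *Cdkn1a* (41.0 ± 2.33 RPKM), and *Skp2* (23.3 ± 2.86 RPKM) overlapped *Rb1* (16.4 ± 4.01 RPKM), which in turn overlapped *Ccne2* (12.1 ± 1.10 RPKM). *Cdkn1b* stood there among the lowest members, at 6.40 ± 0.415 RPKM, and could not be ranked against *Ccnd1* at 6.38 ± 2.15 RPKM. *Cdkn2c* was last in both groups, at 0.689 ± 0.0554 RPKM in E12.5 PGCs. In the order of means *Cdkn1b* therefore had rank 5 in d6PGCLCs and rank 7 in E12.5 PGCs.

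**Figure D2:**
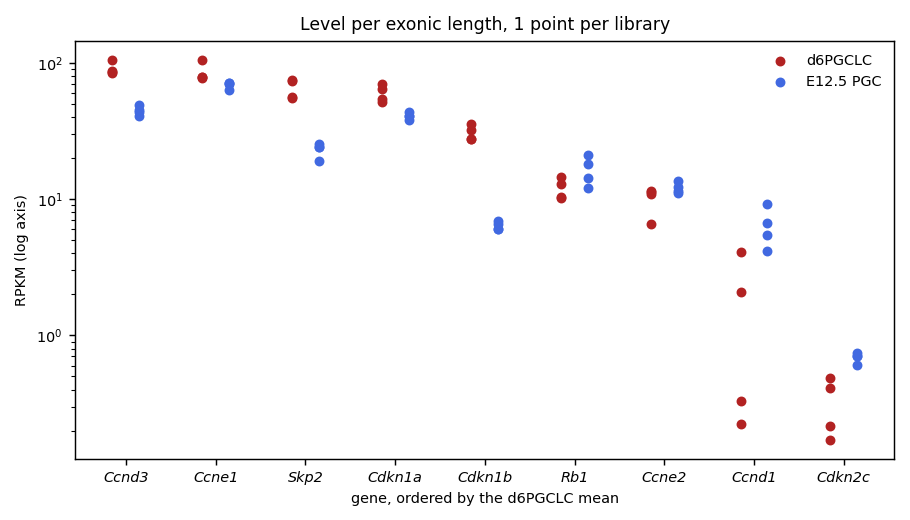
Level per exonic length of the 9 measured members, in RPKM (y axis, log scale), 1 point per library, ordered by the d6PGCLC mean (red, d6PGCLCs; blue, E12.5 PGCs). *Ccnd3* and *Ccne1* overlap at the top in d6PGCLCs, *Ccne1* alone is highest in E12.5 PGCs, where *Ccnd3* overlaps *Cdkn1a*, *Cdkn2c* has the lowest mean in both groups, and the *Cdkn1b* points move from around 30.7 RPKM in d6PGCLCs to around 6.40 RPKM in E12.5 PGCs.

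Ratios between members were then formed within each library, which needs no scaling between libraries. All 7 ratios and shares separated the groups without overlap, and each reached the smallest p that 4 against 4 libraries allow (two-sided exact permutation test, p = 0.0286, adjusted p = 0.0286 over the 7). They share genes, *Cdkn1b* above all, and partly restate the differences of single members, so they are not independent tests. For the share of *Ccnd1* and the ratio of *Cdkn2c* to *Cdkn1b*, the single genes separated in opposite directions, which fixed the outcome beforehand. *Ccnd1* made up 0.212%, 0.384%, 2.33% and 4.62% of the summed RPKM of *Ccnd1* and *Ccnd3* in d6PGCLCs, and 18.4%, 7.85%, 13.4% and 10.6% in E12.5 PGCs. *Ccnd3* thus accounted for most D-type cyclin RNA measured in both groups, with *Ccnd2* not analysed here. The mean share of *Ccnd1* was 1.89 ± 2.06% in d6PGCLCs and 12.6 ± 4.52% in E12.5 PGCs.

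The log2 ratio of summed D-type to summed E-type cyclins was 0.33, -0.44, 0.00 and -0.04 in d6PGCLCs and -0.72, -0.65, -0.58 and -0.73 in E12.5 PGCs. The D-type sum holds *Ccnd1* and *Ccnd3* only, with *Ccnd2* not analysed here. The mean was -0.04 ± 0.31 in d6PGCLCs and -0.67 ± 0.07 in E12.5 PGCs, a difference of 0.63 in the part of D-type RNA that was measured. The log2 ratio of *Ccne1* to *Ccne2* was 3.57, 3.27, 2.81 and 2.79 in d6PGCLCs and 2.62, 2.54, 2.52 and 2.39 in E12.5 PGCs. The first d6PGCLC pool, where *Ccne2* was low, had the highest ratio.

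Although *Skp2* and *Cdkn1b* were both higher in d6PGCLCs, *Cdkn1b* differed more, and their balance differed with it. The log2 ratio of *Skp2* to *Cdkn1b* was 1.42, 1.45, 0.63 and 0.82 in d6PGCLCs and 1.65, 1.90, 2.02 and 1.87 in E12.5 PGCs, a difference of -0.78. The log2 ratio of *Cdkn1a* to *Cdkn1b* differed by -1.71, from 0.96 ± 0.40 in d6PGCLCs to 2.68 ± 0.06 in E12.5 PGCs. It was uneven in d6PGCLCs, where pools 1 and 2 gave 1.35 and 1.24 and pools 3 and 4 gave 0.52 and 0.76, and even in E12.5 PGCs, from 2.63 to 2.77. The log2 ratio of *Cdkn2c* to *Cdkn1b* was -6.70 ± 0.55 and -3.22 ± 0.18 in d6PGCLCs and E12.5 PGCs, with *Cdkn2c* resting on 2 to 9 counts per library. Its 2 counts in each of d6PGCLC pools 1 and 2 are below the limit of 3, so that the size of this ratio is uncertain there, and with 1 RPKM added to both genes the difference went from -3.48 to -2.45.

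The log2 ratio of the 4 measured member cyclins, summed, to the 3 member inhibitors *Cdkn1a*, *Cdkn1b* and *Cdkn2c*, summed, was 0.96, 1.13, 1.04 and 1.05 in d6PGCLCs and 1.55, 1.41, 1.39 and 1.50 in E12.5 PGCs. It was lower in d6PGCLCs, with a difference of -0.42. This rested on which inhibitors were summed. With all 7 measured CDK inhibitors in the sum, *Cdkn1c*, *Cdkn2a*, *Cdkn2b* and *Cdkn2d* included, an alternative chosen after the data were seen, the ratio was 0.64 ± 0.05 in d6PGCLCs and 0.59 ± 0.05 in E12.5 PGCs, the groups overlapped, and the difference was 0.046 (exact permutation test, adjusted p = 0.257). With single libraries left out, the adjusted p of the exact permutation test was at most 0.05 for the ratio to the 3 member inhibitors and for those of *Cdkn1a* and *Cdkn2c* to *Cdkn1b*, and it reached 0.0571 for the share of *Ccnd1* and 0.08 to 0.0857 for the other 3.

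**Figure D3:**
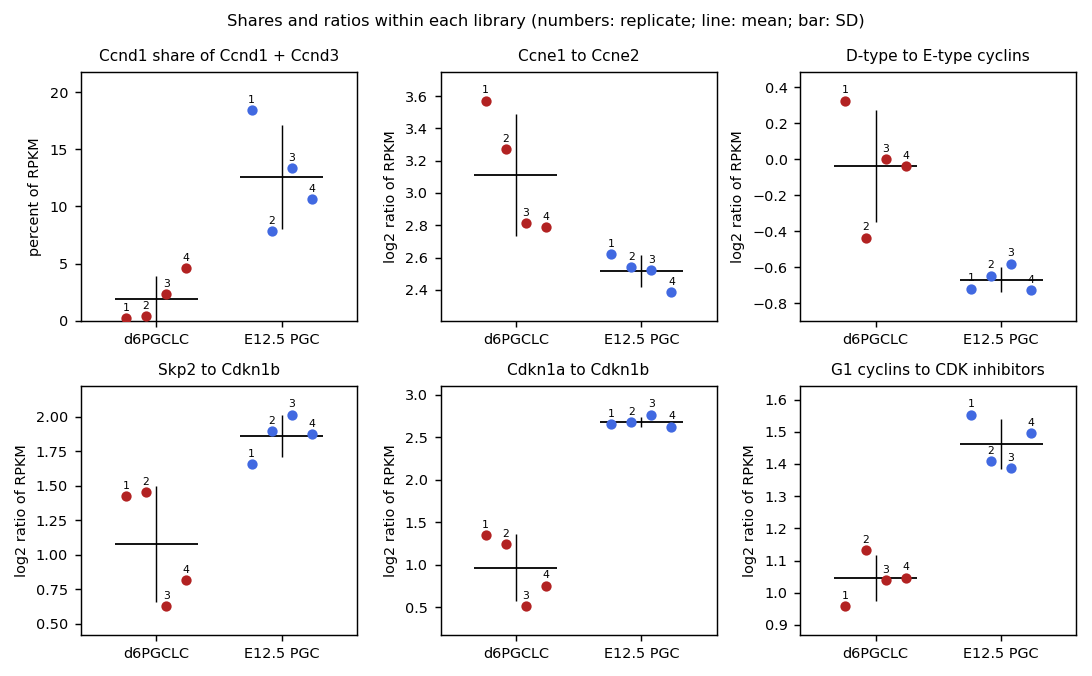
Shares and ratios of members within each library, as percent of RPKM for the share of *Ccnd1* and as the log2 ratio of RPKM in the other panels (y axes not starting at 0 for log2 ratios), with the replicate number at each point, the mean as a line and the SD as a bar. The inhibitors summed are *Cdkn1a*, *Cdkn1b* and *Cdkn2c*, and the D-type cyclins *Ccnd1* and *Ccnd3*. The groups do not overlap in any panel, with *Cdkn1a* to *Cdkn1b* at 0.96 ± 0.40 in d6PGCLCs (red) and 2.68 ± 0.06 in E12.5 PGCs (blue).

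To set the members beside the rest of the pathway, 9 lists of 93 other cell cycle regulators and p53 or mitogen pathway genes were examined in the same fit. Of the 87 genes with a row, 27 were called higher and 24 lower in d6PGCLCs, and the median log2 fold change was -0.01. These 31% higher and 27.6% lower stand beside 28.3% and 25.7% of the genes that averaged 20 counts or more, so that the shares were near the background. The kinases that pair with the D-type cyclins differed from each other: *Cdk6* was at 4.34, 4.89, 4.31 and 3.15 CPM in d6PGCLCs and at 12.2, 13.5, 12.8 and 15.8 CPM in E12.5 PGCs (log2 fold change of -1.70 ± 0.20, edgeR adjusted p = 5.04e-07). *Cdk6* was thus lower in d6PGCLCs, as *Ccnd1* was. *Cdk4* was at 711 ± 87.1 and 583 ± 96.4 CPM, and did not pass the test (0.29 ± 0.11, edgeR adjusted p = 0.0574). It was called higher without d6PGCLC pool 1 (0.36, adjusted p = 0.00492), without E12.5 PGC pool 2 (0.35, adjusted p = 0.0293) or 4 (0.34, adjusted p = 0.0436), and without both (0.46, adjusted p = 0.00529). With 1 library left out, the value of *Cdk4* ranged from 0.18 to 0.36 (edgeR adjusted p of at most 0.231). Of the 6 CDK partners with a row, 2 were lower, the other being *Ccnh*, the cyclin of the CDK-activating kinase (-0.25), and 4 were not called. Of 4 cyclins of S, G2 and M phase, *Ccnf* was called (-0.25, lower), and the values of *Ccna2*, *Ccnb1* and *Ccnb2* were -0.01, -0.21 and -0.10 (adjusted p of *Ccnb1* 0.0597). This count was 2 with DESeq2, with each other scaling between libraries and with either filter, 3 with the length offset, and 0 to 2 with 1 library left out. Both small calls depended on single libraries: that of *Ccnh* was lost without d6PGCLC pool 3 or 4 or any 1 E12.5 PGC pool (adjusted p from 0.0590 to 0.132), and that of *Ccnf* without d6PGCLC pool 3 or E12.5 PGC pool 3 or 4 (adjusted p from 0.0903 to 0.0991). Without E12.5 PGC pools 2 and 4 both were lost (*Ccnh*, -0.30, adjusted p = 0.0957, and *Ccnf*, -0.25, adjusted p = 0.107).

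The other CDK inhibitors did not follow *Cdkn1b*. *Cdkn1c*, which encodes p57, was at 2.62 ± 1.00 CPM in d6PGCLCs and at 6.73 ± 1.43 CPM in E12.5 PGCs (-1.34 ± 0.28, edgeR adjusted p = 0.000524). *Cdkn2b*, an inhibitor of CDK4 and CDK6 with a mean of only 15.6 counts, was also lower (-1.45 ± 0.41, adjusted p = 0.00706), and *Cdkn2a* and *Cdkn2d* were not called. Without E12.5 PGC pools 2 and 4, *Cdkn1c* alone of these was called. All 3 called genes of the *Cip/Kip* family were thus split, with *Cdkn1a* and *Cdkn1b* higher and *Cdkn1c* lower.

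Among the pocket proteins, E2F factors and their DP partners, 7 of 11 were higher, 1 was lower and 3 were not called. These 63.6% higher and 9.09% lower stand beside 28.3% and 25.7% of genes that averaged 20 counts or more, with no test of the list. *Rbl1*, the paralog of *Rb1* that encodes p107, was higher in d6PGCLCs, at 31.9, 41.8, 41.9 and 41.6 CPM against 22.6, 21.8, 20.9 and 26.4 CPM (0.78 ± 0.14, edgeR adjusted p = 9.19e-05). *Rbl2*, encoding p130, was higher by 0.61 ± 0.20 (adjusted p = 0.0235), so that both paralogs went opposite to *Rb1*. *E2f2* was higher (0.64) and the DP partner gene *Tfdp1* was lower (-0.36). *E2f1* did not pass the test (-0.16 ± 0.09, adjusted p = 0.206). With the length offset it was called lower (-0.24, edgeR adjusted p = 0.0182), and 2 genes of this list were then lower. The call of *Rbl2* was lost without d6PGCLC pool 1 (0.46, adjusted p = 0.0741) or 2 (0.53, adjusted p = 0.0759), and without E12.5 PGC pool 1 (0.57, adjusted p = 0.0549) or 3 (0.58, adjusted p = 0.0710).

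Of 18 E2F target genes of DNA replication, 4 were higher, 6 were lower and 8 were not called, with a median of -0.06. These 22.2% higher and 33.3% lower were near the 28.3% and 25.7% of genes that averaged 20 counts or more. The largest differences were in *Rrm2*, a subunit of ribonucleotide reductase (0.93), and in the chromatin assembly gene *Chaf1b* (0.73) and the replication gene *Gins2* (0.64), which were higher. The histone mRNA binding gene *Slbp* (-0.56) and the helicase genes *Mcm3* (-0.38) and *Mcm2* (-0.35) were lower. The 5 *Mcm* genes measured ranged from -0.38 to 0.16, with 4 lower and *Mcm7* not called.

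Of the partners of *Skp2* in the SCF ligase, the scaffold and RING genes were lower. The scaffold gene *Cul1* was at 165 ± 15.8 CPM in d6PGCLCs and at 244 ± 24.7 CPM in E12.5 PGCs, without overlap (-0.56 ± 0.10, edgeR adjusted p = 8.58e-05). The RING gene *Rbx1* was lower too (-0.44, adjusted p = 0.0135, call lost without E12.5 PGC pool 4, -0.39, adjusted p = 0.0527, and without pools 2 and 4, -0.37, adjusted p = 0.103). The adaptor *Skp1* was not called (-0.08, adjusted p = 0.743), and neither was *Cks1b*, the cofactor that SKP2 needs to bind p27 (0.32 ± 0.13, adjusted p = 0.0604). *Cks1b* was however called higher, as *Skp2* was, with the length offset (0.27, adjusted p = 0.0274), without d6PGCLC pool 1 (0.40, adjusted p = 0.00588), without E12.5 PGC pool 4 (0.38, adjusted p = 0.0478) and without pools 2 and 4 (0.48, adjusted p = 0.0200). With 1 library left out, the value of *Cks1b* ranged from 0.19 to 0.40 (edgeR adjusted p of at most 0.295). Among genes that averaged 20 counts or more, 25.7% were lower and 28.3% higher. In all, 6 of 14 genes of SCF and of cyclin or inhibitor turnover were lower (42.9%), 1 was higher (7.14%) and 7 were not called. Without E12.5 PGC pool 4, alone or together with pool 2, 3 were lower and 2 higher, and without d6PGCLC pool 1, 2 were higher. The higher gene was *Usp2*, whose product removes ubiquitin from cyclin D1 (0.87 ± 0.13, adjusted p = 1.29e-05), at 63.2 ± 10.04 CPM against 34.7 ± 3.44 CPM.

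The phosphatases and kinases that set CDK phosphorylation were split, with 2 of 5 higher, 2 lower and 1 not called. These 40% higher and 40% lower stand beside 28.3% and 25.7% of genes that averaged 20 counts or more. *Cdc25c*, which activates CDK1, was higher (1.02 ± 0.11, edgeR adjusted p = 3.32e-07), and *Wee1*, which inhibits it, was lower (-0.79 ± 0.09, adjusted p = 3.97e-07). *Pkmyt1* (0.49) was higher and *Cdc25a* (-0.31) lower, the latter with a call that was lost without d6PGCLC pool 3 or 4 or E12.5 PGC pool 1 or 3 (adjusted p from 0.0525 to 0.0849).

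Of the 16 genes of the p53 axis, which *Cdkn1a* belongs to as a target, 12 were higher in d6PGCLCs, 0 were lower and 4 were not called, with a median of 0.53. The 75% called higher stand beside 28.3% of the genes that averaged 20 counts or more, with no test of the list. Without d6PGCLC pool 1, 1 gene of the list was called lower. The count of higher genes was 9 with upper-quartile scaling and 3 under glmTreat against 0.5. *Pmaip1*, a pro-apoptotic target, was at 91.4, 52.4, 26.2 and 26.7 CPM in d6PGCLCs and at 4.74, 7.79, 4.89 and 5.87 CPM in E12.5 PGCs (3.07 ± 0.31, edgeR adjusted p = 9.89e-08). *Zmat3* was at 221, 165, 123 and 132 CPM in d6PGCLCs and at 58.0 to 67.1 CPM in E12.5 PGCs (1.34 ± 0.14, adjusted p = 1.24e-07). In both, as in *Cdkn1a*, the first and second d6PGCLC pools were the highest. *Trp53* itself was higher (0.48 ± 0.08, adjusted p = 0.000101), as was *Phlda3* (0.73), and *Mdm2*, which encodes the ligase of p53, was higher by 0.28 (adjusted p = 0.0209). The *Mdm2* call was lost without d6PGCLC pool 2 (0.24, adjusted p = 0.0537) and without E12.5 PGC pool 2, 3 or 4 (0.25 to 0.27, adjusted p from 0.0504 to 0.0665), as well as without pools 2 and 4 (0.22, adjusted p = 0.184). Upper-quartile scaling also lost it (0.24, edgeR adjusted p = 0.0539).

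Of 9 genes of MYC and mitogen inputs, 4 were lower, 1 was higher and 4 were not called, with a median of -0.29. These 44.4% lower and 11.1% higher stand beside 25.7% and 28.3% of genes that averaged 20 counts or more, with no test of the list. *Id1*, an inhibitor of differentiation and a target of BMP signalling, was at 17.0 ± 2.96 CPM in d6PGCLCs and at 83.8 ± 14.7 CPM in E12.5 PGCs (-2.30 ± 0.14, edgeR adjusted p = 7.82e-11). *Id2* (-1.65) and *Id3* (-0.56) were lower as well, and *Max*, the partner of MYC, was higher (0.53). *Myc* and *Mycn* were not called (-0.13 and -0.10).

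**Figure D4:**
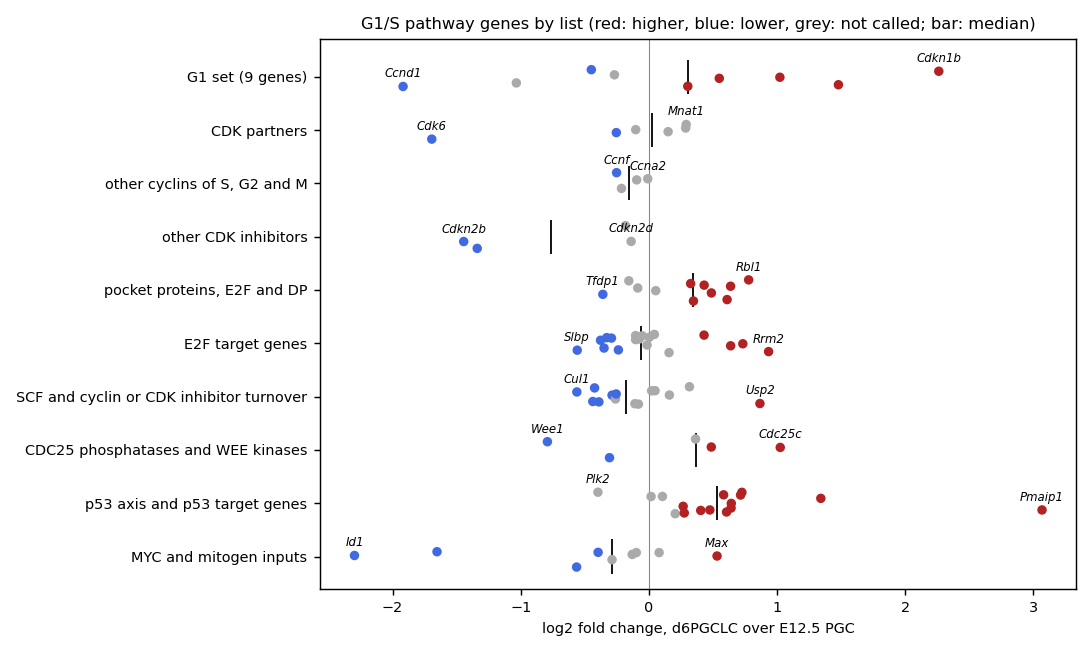
Log2 fold change of each measured member and each pathway gene, d6PGCLCs over E12.5 PGCs (x axis), 1 row of points per list, with genes called higher in red, lower in blue and not called in grey, and the list median as a bar. The members span from -1.92 (*Ccnd1*) to 2.26 (*Cdkn1b*), and the p53 list shows 12 genes called higher and none lower in this fit.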

How the data were processed

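Per the labels and the study's methods, poly(A) RNA was sequenced in single-end mode with a stranded kit. STAR alignments to GRCm38 (mm10) with ERCC sequences were used by the authors, who drew 1 isoform per gene at random, dropped genes of overlapping promoters at random, and counted uniquely mapped reads on exons with QuasR. They deposited unnormalized read counts per Entrez gene, and the exonic length of the counted isoform. Symbols and coordinates were taken from RefSeq (21907 of 21950 matched). Promoter windows came from RefSeq (GRCm38.p6) for 6 of 10 members, and exon overlaps from GENCODE M21.

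Counts were scaled with TMM and fitted over all genes in edgeR 4.0.16 (R 4.3.3, glmQLFit and glmQLFTest, prior count 0.125, cell type as the only term), and called where p, adjusted by Benjamini-Hochberg, was 0.05 or less. On simulated counts for this comparison, 91 of 100 genes changed 2-fold and 100 of 100 changed 4-fold were called, and 22 of 21750 unchanged genes. The 200 changed genes all averaged 20 counts or more, with as many raised as lowered. These figures therefore do not cover sparse genes such as *Cdkn2c* and *Cdkn2b*, or data where 31.5% of genes are called. Ratios used RPKM and an exact permutation test over libraries. Limits of detection were 3 counts.

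The members and lists were chosen with earlier results of these data known. Named were all members, up to 3 called genes per direction and list with a mean of at least 20 counts, direct partners of members, and the 3 genes most like *Skp2*, and other list genes were named after their values were seen. Alternatives were DESeq2 1.42.0, the likelihood ratio test, other scalings (library size, size factors, upper quartile), filters (filterByExpr, or CPM above 1 in at least 3 libraries), a prior count of 2, the replicate number as a block, an adjusted p of at most 0.01, glmTreat against 0.5, a length offset, 1 RPKM added or CPM in place of RPKM for ratios, libraries left out and, added after the data were seen, all measured CDK inhibitors in the sum.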

Additional observations from a re-analysis of the deposited data

Results flagged for a closer look

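In 3 of 32 sets of 4 libraries, 1 library stood apart from the other 3 by more than the 95% limit of Dixon's test for a gap within the range, where chance gives about 1 in 20 (1.6 sets). *Ccne1* was at 258 CPM in d6PGCLC pool 2, against 192 CPM in the nearest pool, and this value raised the d6PGCLC mean. In E12.5 PGC pool 3 *Ccne1* was at 155 CPM, against 172 CPM in the nearest pool. *Ccne2* was at 22.8 CPM in d6PGCLC pool 1, against 38.3 CPM in the nearest pool, the same library in which the ratio of *Ccne1* to *Ccne2* was highest.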

How the results depend on the processing

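*Cdkn1b*, *Skp2* and *Ccnd3* were called in the same direction under every alternative run, *Cdkn1a* under all but glmTreat, and *Ccnd1* under all but DESeq2. Called members were 4 (3 higher, 1 lower) under glmTreat, and 1 was called lower with DESeq2 and at an adjusted p of at most 0.01. With 1 library left out, 5 to 7 members were called, 1 to 2 of them lower. Of the pathway genes, 15 were called lower at an adjusted p of at most 0.01, and 7 higher and 6 lower under glmTreat. By list, glmTreat called 3 p53 axis genes and 1 of the pocket proteins, E2F and DP higher, and 0 SCF and turnover genes lower. *Skp1*, not called, ranged from -0.20 to 0.024 (without d6PGCLC pool 1) with 1 library left out, and was at 0.028 without E12.5 PGC pools 2 and 4.

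Pools with the same number deviated together weakly (r = 0.31, 0.12, -0.04 and 0.05 for numbers 1 to 4), and 2 of 4 correlated best with their own number, so that the numbers were not taken as pairs. With the number as a replicate block, 7 members were again called, *Cdk4* (0.29, edgeR adjusted p = 0.000722) and *Cks1b* (0.31, adjusted p = 0.00915) were called higher, 2 cyclins of S, G2 and M phase were called lower, and 1 gene of the p53 list was called lower. For the shares and ratios the smallest two-sided p that the block of 4 pairs allows is 1 in 8 (exact sign-flip test), with differences of -10.7 (share of *Ccnd1*, in percentage points), 0.60 (*Ccne1* to *Ccne2*), -0.78 (*Skp2* to *Cdkn1b*), -1.71 (*Cdkn1a* to *Cdkn1b*), -3.48 (*Cdkn2c* to *Cdkn1b*), 0.63 (D-type to E-type) and -0.42 (cyclins to inhibitors). In the same order, without E12.5 PGC pools 2 and 4 they were -14.0, 0.54, -0.76, -1.74, -3.62, 0.61 and -0.43 (exact permutation, adjusted p from 0.0933 to 0.133, with fewer libraries). With 1 library left out the share of *Ccnd1* ranged from -12.3 to -8.73 (adjusted p = 0.0571 without d6PGCLC pool 1, 2 or 3), *Ccne1* to *Ccne2* from 0.44 to 0.70, *Skp2* to *Cdkn1b* from -0.90 to -0.63 and D-type to E-type from 0.51 to 0.77 (adjusted p from 0.0667 to 0.0857 without any 1 E12.5 PGC pool). With all 7 measured inhibitors in the sum, chosen after seeing the data, cyclins to inhibitors turned to 0.046 (exact permutation, adjusted p = 0.257). *Cdkn2c* was near the limit of detection, and the counted isoform, drawn at random, limits the levels per length.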
